A study of Mus musculus with 2 samples.

Results

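The genes that maintain and transcribe mitochondrial DNA were examined in primary hepatocytes, the main metabolic cells of the liver, in which *Drp1* had been deleted. They are *Tfam*, *Tfb1m*, *Tfb2m*, *Polrmt*, *Polg*, *Polg2*, *Ssbp1*, *Lonp1* and *Nrf1*, 9 of the 37074 gene names on the array, and were taken as every non-control probe that carries one of these names. This gave 22 of 56605 probes. Drp1 is the dynamin-like GTPase that constricts and divides mitochondria. Control cells, labelled wild type, came from *Drp1*flox/flox littermates, and *Drp1*LiKO cells from *Alb-Cre*Tg/+ *Drp1*flox/flox mice, so both genotypes carry the floxed alleles and only the second carries Cre. Both are labelled with the C57BL/6 background. In the second genotype Cre is driven by the albumin promoter, which is active in hepatocytes, so other cells in a culture are not meant to lose the gene. The age of these animals and how many were used per culture were not given in the sources used here. Cells were untreated and were harvested 24 h after seeding. RNA labelled with Cy3 was hybridized to 1 array per genotype. No test was therefore possible, no p-value is given, each difference describes these 2 arrays alone, and their number limits the precision of every value.

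The mitochondrial genome is a small circular molecule present in many copies per cell, packed into nucleoids by the DNA-binding protein TFAM. It encodes core subunits of the respiratory chain together with the ribosomal and transfer RNAs needed to make them, whereas every protein that copies or reads it is encoded in the nucleus and imported. Transcription is carried out by the RNA polymerase POLRMT with TFAM and TFB2M and gives long RNAs that are cut into the single transcripts, and replication is carried out by the polymerase gamma holoenzyme, of POLG and POLG2, with the helicase Twinkle and the single-stranded DNA-binding protein SSBP1. Division of mitochondria by Drp1 has been linked to how nucleoids are spread through the network, and the liver is among the tissues affected when mitochondrial DNA is depleted.

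The probes read single stretches of 60 bases. The first 30 bases of the brightest probes of *Tfam*, *Tfb1m*, *Tfb2m* and *Polrmt* are shown first, since these 4 genes stood lowest among the members. They are written 5′ to 3′ in lower case, with no base marked, and the coordinates are those of the whole probe in mm9, all on the minus strand (*Tfam* chr10:70691103-70691162, *Tfb1m* chr17:3519390-3519449, *Tfb2m* chr1:181458247-181458306, *Polrmt* chr10:79198897-79198956).
Tfam: ctttgagccttgacagaagatgatgctgag
Tfb1m: tgacctcgtgactttactatccagcttggt
Tfb2m: gtgatcagtttatcttttattatgttgaag
Polrmt: cctgtgcataatgtaaataaatgaaagttt

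The promoters of all 9 members were found in RefSeq (GRCm38.p6, 250 bases before to 50 after the start of the gene), with a second entry for *Nrf1*. The core CCGGAAG, bound by ETS factors such as GABP, was searched on both strands and stood in 5 of the 10 promoter entries, those of *Tfam*, *Polrmt*, *Polg*, *Polg2* and *Ssbp1*, and in 8.86% of all 32851 promoters of that length. The promoter windows are shown because the members with this core include both genes that were lower and genes that were near 0. They are read along the gene's strand, with the core in capitals, and span chr10:71238074-71238102 (*Tfam*, minus), chr10:79746607-79746635 (*Polrmt*, minus), chr7:79466294-79466322 (*Polg*, minus), chr11:106779549-106779577 (*Polg2*, minus) and chr6:40471410-40471438 (*Ssbp1*, plus).
Tfam promoter: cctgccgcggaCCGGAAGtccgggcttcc
Polrmt promoter: ccctaagagcgCTTCCGGcagtcgcagaa
Polg promoter: gaggacctcacCCGGAAGtccctctgcac
Polg2 promoter: cgggtgacgctCTTCCGGgggcgtggtct
Ssbp1 promoter: ggctccgtgcgCCGGAAGcgagccgctgg
In each window the core began 29 to 47 bases before the start of the gene. The core GCGCATGCG, to which the NRF1 protein binds, was searched in the same way and stood in 1 member promoter, that of *Tfb2m* (chr1:179546256-179546264), and in 1.75% of all promoters. In *Tfb2m* it lies after the start of the gene, unlike the cores shown above. No member promoter held both cores, so an overlap between sites of the 2 motifs was not possible. Such a match describes these letters and not binding.

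Values are processed signals, a linear intensity that Feature Extraction corrected for background. For comparison the *Drp1*LiKO signals were divided by 1.13, which brings the 75th percentile of that array to the control's, and a ratio is the log2 signal of *Drp1*LiKO minus that of control cells. The brightest probe stands for its gene, and 20165 genes were above background on at least 1 array. The targeted gene, listed as *Dnm1l*, had a signal of 2602 on the control array and 1072 on the *Drp1*LiKO array, which gave a log2 ratio of -1.28. Its other probe, near background at 22.8 and 18.5, had a ratio of -0.31. A second deposited source, a table of normalized values, kept the order of the probes of the control array exactly, whereas its other column departed from the *Drp1*LiKO array (Spearman's rho 0.988 over the 29464 probes above background there, which are not independent) and lay over 2-fold away at 1053 of them. The 2 sources of *Drp1*LiKO values are therefore not interchangeable, and ratios from the normalized table are given beside those of the arrays. The marker genes of hepatocytes were well above background on both arrays in 9 of 9 cases, led by *Alb*, with a summed signal of 312209 on the control array and 333938 on the *Drp1*LiKO array, most of it from *Alb* (219613 and 234986). They differed in both directions, with 6 of 9 higher, 2 over 1.5-fold higher, 1 over 1.5-fold lower and a median log2 ratio of 0.10. Most markers of other cell types were higher in *Drp1*LiKO cells. All 11 detected Kupffer cell and macrophage markers, led by *Cd68*, were higher in *Drp1*LiKO cells (summed signal 4714 and 18047, median log2 ratio 2.52), *Timd4* was above background on neither array, and *Clec4f* and *Vsig4* only in *Drp1*LiKO cells. Endothelial markers, led by *Egfl7*, were higher in 8 of 8 cases (4152 and 7454, median 1.60) and stellate cell markers, led by *Acta2*, in 5 of 6 (21671 and 22321, median 1.04), where *Des* has no direction because its control signal was raised to the background limit. Most of these 2 sums came from *Egfl7* (3773 and 6116) and from *Acta2* (21437 and 21710). The ratio of *Acta2* was 0.02 at its brightest probe, but its 3 probes ranged up to 2.20. *Lyve1* and *Tek* among the endothelial, and *Des*, *Pdgfrb* and *Col3a1* among the stellate cell markers, were not above background in control cells, and *Lrat* on neither array. Mitotic genes, led by *Plk1*, were lower in 8 of 8 cases (8625 and 2055, median -2.04). The part of these differences in the member values was not tested, and in whole cultures fewer cells of a type cannot be told apart from less RNA per cell.

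The 3 genes of the mitochondrial transcription machinery, *Tfam*, *Tfb2m* and *Polrmt*, all gave a lower signal on the *Drp1*LiKO array than on the control array, with log2 ratios between -0.66 and -0.29 and a median of -0.38. All 5 of their detected probes were lower. *Tfb1m*, a relative of *Tfb2m* with another main role, was lower as well. *Tfam* packs mitochondrial DNA and bends it at promoters so that transcription can start. Its brightest probe had a signal of 2357 on the control array and 1811 on the *Drp1*LiKO array, a log2 ratio of -0.38. Its other probe, at 1503 and 1179, had a ratio of -0.35, so both probes of *Tfam* gave nearly the same value. The spread between the 2 probes of *Tfam* was 0.03 on the log2 scale. The median spread was 0.24 over the 6055 genes with 2 or more probes above background on both arrays, and a spread tends to grow with the number of probes. The *Tfam* probes also lie close together (chr10:70691103-70691162 and chr10:70691260-70691319), so they are not independent.

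*Tfb2m*, the factor that opens the promoter for the polymerase, had the lowest ratio of the members. Its brightest probe had a signal of 886 on the control array and 560 on the *Drp1*LiKO array, a log2 ratio of -0.66 or 1.58-fold lower. Its other probe was at 288 and 199, a ratio of -0.53. *Tfb1m*, which methylates the small mitochondrial ribosomal RNA, was at 425 on the control array and 305 on the *Drp1*LiKO array, a ratio of -0.48. The other *Tfb1m* probe was not above background on either array. *Polrmt*, the mitochondrial RNA polymerase itself, had 1 probe, with a signal of 1888 on the control array and 1544 on the *Drp1*LiKO array and a ratio of -0.29. In the normalized table the ratios were -0.36 and -0.40 for the *Tfam* probes, -0.60 and -0.53 for those of *Tfb2m*, -0.36 for *Tfb1m* and -0.18 for *Polrmt*, so all 6 probes of these 4 genes were lower there too.

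**Figure D1:**
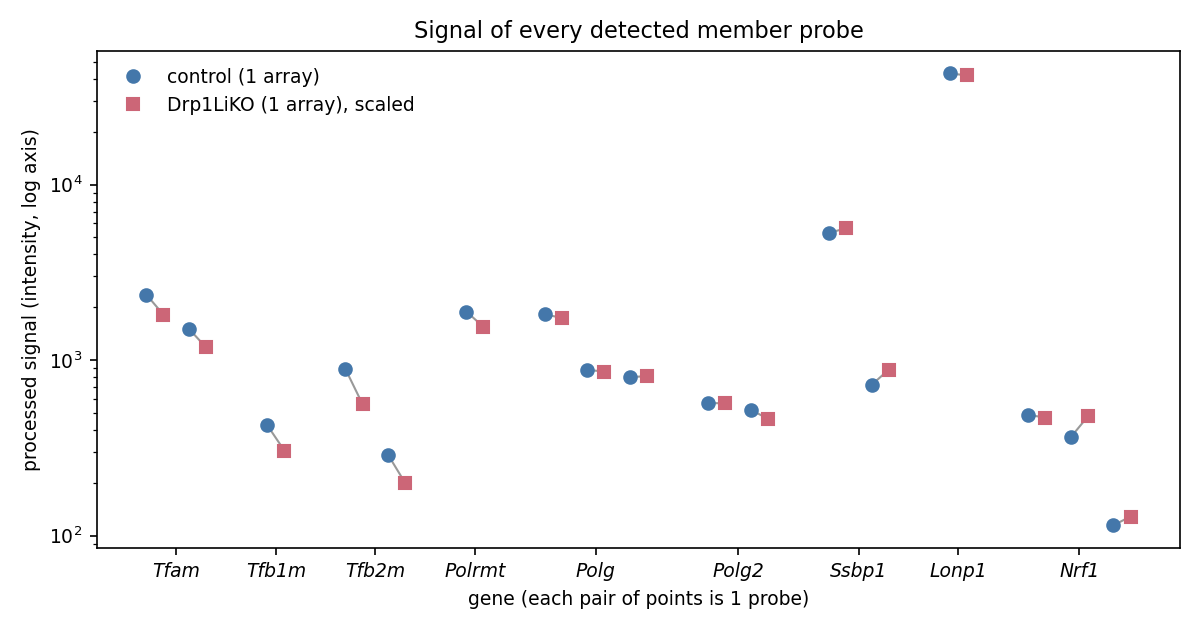
Processed signal, a linear intensity on a log axis, of every member probe above background, as 1 circle for the control array and 1 square for the *Drp1*LiKO array scaled to the same 75th percentile. The lines fall for all 6 probes of *Tfam*, *Tfb1m*, *Tfb2m* and *Polrmt*, from 886 to 560 for the brighter *Tfb2m* probe, and are nearly level for *Polg* and *Lonp1*.

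The replication genes had ratios from -0.17 to 0.29 over their detected probes. *Polg*, the catalytic subunit of polymerase gamma, had 3 detected probes. They had signals of 1820, 879 and 797 on the control array and of 1739, 860 and 811 on the *Drp1*LiKO array. The ratios were -0.07, -0.03 and 0.02, all within the error of a ratio, and the remaining *Polg* probe was not above background on either array. *Polg2*, the accessory subunit that keeps the polymerase on its template, had a signal of 569 on the control array and 567 on the *Drp1*LiKO array at its brightest probe, a ratio of -0.00. Its other probe, whose mm9 coordinates span 692 bases and so cross an intron, was at 520 and 463, a ratio of -0.17.

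*Ssbp1* coats the single strand of DNA exposed during replication. Its brightest probe, also split between exons, had a signal of 5307 on the control array and 5629 on the *Drp1*LiKO array, a ratio of 0.09. The other detected probe was at 722 and 883, a ratio of 0.29, and the remaining 2 were not above background. The normalized table gave -0.07 and -0.16 for these probes, so the direction for *Ssbp1* turned with the source of the values. The *Polg* probes had ratios of -0.01, 0.05 and 0.09 there. Those of *Polg2* had -0.13 and -0.26, the second of them below *Polrmt* at -0.18, so in that table the probes of *Polrmt* and *Polg2* were not set apart.

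*Lonp1*, the matrix protease that degrades TFAM not bound to DNA among other substrates, was at 42995 on the control array and 41817 on the *Drp1*LiKO array, a ratio of -0.04. *Nrf1* encodes a nuclear transcription factor that activates many genes of mitochondrial proteins, *Tfam* and the *Tfb* genes among them. Its brightest probe had a signal of 487 on the control array and 470 on the *Drp1*LiKO array, a ratio of -0.05. A second *Nrf1* probe was at 364 and 477, a ratio of 0.39, and another at 114 and 128, a ratio of 0.17. The probes of *Nrf1* thus spread over 0.44, more than in 73.4% of genes with several probes, and the remaining one was not above background. That share was not matched for the number of probes, on which a spread depends. The 3 detected probes lie on the plus strand of chromosome 6 and begin as follows, in the order of their signals (chr6:30103035-30103094, chr6:30094644-30094703 and chr6:30067078-30067137).
Nrf1 brightest probe: ctcccgtgcgtgatagtgtatttaatgtgg
Nrf1 second probe: agattcatacagattttggaaagggattca
Nrf1 dimmest probe: ccacattggctgatgcttcagaactgccaa
In the normalized table these probes had ratios of 0.07, 0.41 and -0.26, so the second had nearly the same value from both sources while the other two changed sign.

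Set against all detected genes, dim ones included, most members moved little. The central 50% of detected genes lay between -0.27 and 0.21, and 5 of the 9 members fell inside it, while *Tfam*, *Tfb1m*, *Tfb2m* and *Polrmt* lay below it. Ratios spread less among the 10542 genes at least as bright as the dimmest member. Their SD was 0.45 and their central 50% lay between -0.22 and 0.14. The members' median was -0.07, against -0.05 for all genes. Of the members 8 had a ratio below 0, as had 55.5% of all genes. *Tfb2m* was the 1 member over 1.5-fold lower, and 10.3% of genes were. No member was over 1.5-fold higher, against 10.3% of genes. A Z score, which is a ratio minus the mean of all detected probes, over an SD of 0.65, reached 2 in no member, in 3.5% of genes for higher and in 2.81% for lower values. The largest Z score among the member probes was 1.00 in size, again at *Tfb2m*. The targeted gene *Dnm1l* had a Z score of -1.95 at its brightest probe, so the deleted gene did not reach this threshold either.

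Measured against technical error, 8 of the 17 detected member probes had a ratio over 2 times the noise between spots, which was read from 300 probes printed 10 times on each array and was 0.06 to 0.18 on the log2 scale for a member's ratio. They were the 6 probes of *Tfam*, *Tfb1m*, *Tfb2m* and *Polrmt*, the second *Ssbp1* probe and the second *Nrf1* probe. The wider error that Feature Extraction assigns to each spot came to 0.20 to 0.21 for a ratio, and 3 probes passed 2 times that error, both probes of *Tfb2m* and the one of *Tfb1m*. Neither error holds the difference between cultures or animals of 1 genotype. The share of all detected probes past either cut was not computed, so these counts do not set the members apart from other genes.

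**Figure D2:**
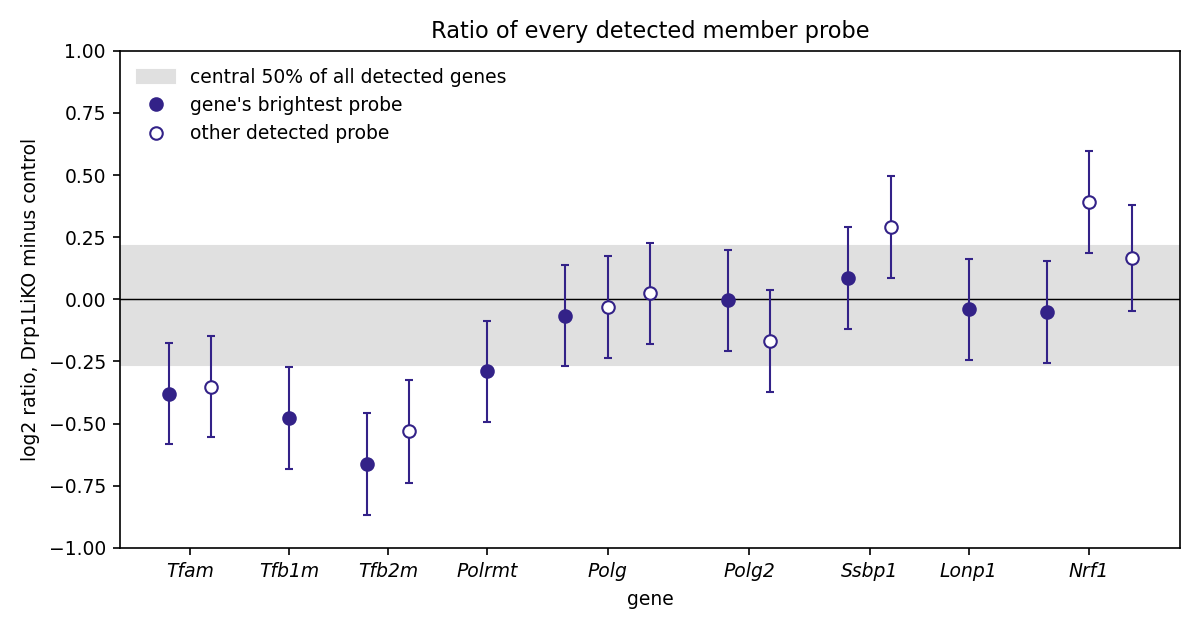
Log2 ratio of every detected member probe, *Drp1*LiKO minus control, with the error Feature Extraction assigns as bars and the central 50% of all detected genes as a grey band. The probes of *Tfam*, *Tfb1m*, *Tfb2m* and *Polrmt* lie from -0.66 to -0.29, below the band. All detected probes of the other 5 genes lie from -0.17 to 0.39, and their brightest probes from -0.07 to 0.09.

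For the transcripts that this machinery makes, 11 probes were named for protein-coding genes of the mitochondrial genome. All 11 are given here, a choice made after their values were seen. Of these 9 were lower in *Drp1*LiKO cells, and the median of all 11 ratios was -0.46. Over 1.5-fold lower were 4 of the 11, against 10.3% of all genes. By the normalized values 9 were lower too, with *ND6* in place of *ND2*, and 3 were over 1.5-fold lower, *ND4*, *CYTB* and *ND6*, while *ND4L* (-0.45) and *ND5* (-0.47) were not. The 9 probes lower on the arrays are the ones that the files place on the plus strand of the mitochondrial genome in mm9. The probe of *ND6*, the only one of these protein genes encoded on the opposite strand, and that of *ND3*, which the files place on chromosome 1, were higher. The *ND3* probe is counted among the 11, although at that place it may read a nuclear copy and not a transcript of this machinery. The 2 outermost probes of the plus strand and the 2 that went the other way are printed whole, 5′ to 3′ with no base marked (*ND1* chrM:2898-2957, plus; *CYTB* chrM:15099-15158, plus; *ND6* chrM:13552-13611, minus; *ND3* chr1:24619613-24619672, minus).
ND1: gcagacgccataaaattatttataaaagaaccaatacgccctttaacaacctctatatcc
CYTB: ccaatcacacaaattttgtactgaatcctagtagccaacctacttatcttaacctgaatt
ND6: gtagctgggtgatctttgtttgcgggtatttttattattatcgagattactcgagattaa
ND3: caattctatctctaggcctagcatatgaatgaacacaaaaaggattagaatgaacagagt

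In the order of the genome, *ND1* and *ND2*, subunits of complex I, had signals of 11532 and 85291 on the control array and of 8685 and 62115 on the *Drp1*LiKO array, ratios of -0.41 and -0.46. *COX1* and *COX2*, the catalytic core of cytochrome c oxidase, were at 156730 and 197475 on the control array and at 107832 and 163625 on the *Drp1*LiKO array, ratios of -0.54 and -0.27. *ATP8*, a subunit of ATP synthase, was at 17639 and 13516, a ratio of -0.38. Farther along the same strand the differences were larger. The complex I subunits *ND4L*, *ND4* and *ND5* were at 40350, 61978 and 14981 on the control array and at 21491, 35252 and 7557 on the *Drp1*LiKO array, ratios of -0.91, -0.81 and -0.99. *CYTB*, the cytochrome b of complex III, was at 94051 and 50773, a ratio of -0.89. *ND6* was at 608 on the control array and 685 on the *Drp1*LiKO array, a ratio of 0.17, and the *ND3* probe at 30803 and 37198, a ratio of 0.27.

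Divided at *ND4L*, a place chosen after the ratios were seen, the 5 plus-strand transcripts ahead of it had ratios of -0.54 to -0.27 and the 4 from it on -0.99 to -0.81. Across these 9 transcripts, which come from 1 pair of arrays and are cut from shared long RNAs, Spearman's rho of the ratio with the position of the probe was -0.67 and Pearson's r was -0.81. The *ND3* probe, placed on chromosome 1, was left out of the division and of the correlations. Its ratio was 0.27 on the arrays and 0.44 in the normalized table. In the normalized table *ND2* was higher, at 0.13, and *ND6* lower, at -0.62. There the 5 transcripts had ratios of -0.54 to 0.13 and the 4 of -0.68 to -0.45, which overlap, and rho was -0.73. The 9 plus-strand probes are among the brightest on the array and none was saturated. *ND6* was far dimmer, at 608 on the control array. The 2204 nuclear genes at least as bright as the dimmest of the 9 had a median ratio of -0.07.

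**Figure D3:**
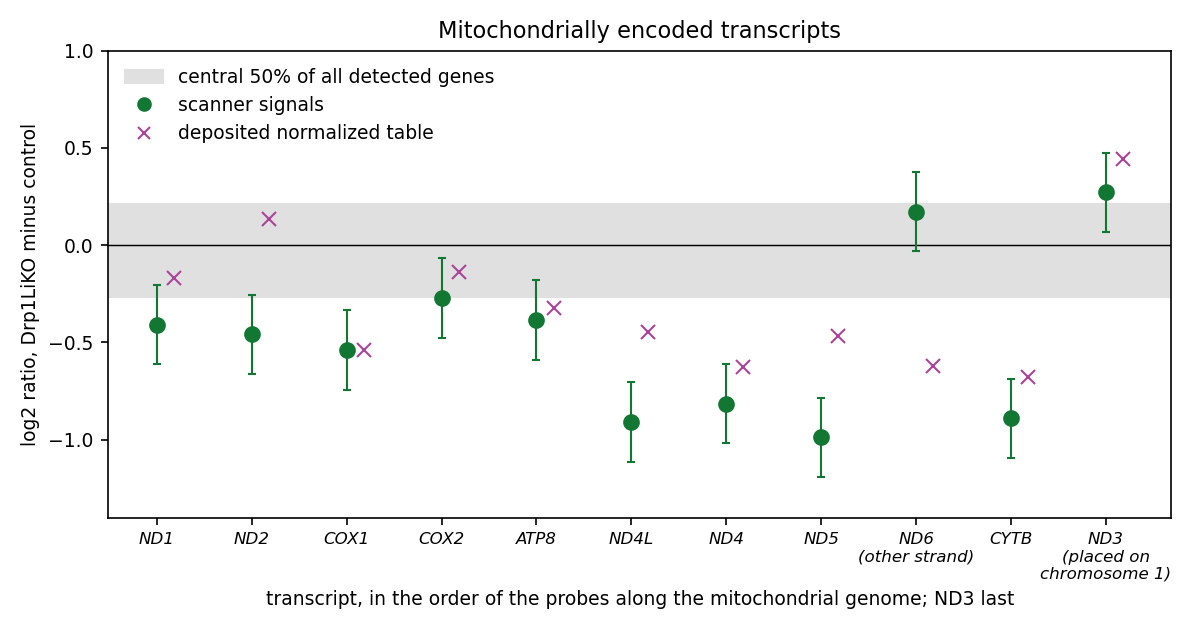
Log2 ratio of the mitochondrially encoded transcripts, *Drp1*LiKO minus control, in the order of their probes along the genome and with *ND3*, placed on chromosome 1, last. Circles are array signals with the error Feature Extraction assigns, crosses the deposited normalized table, and the grey band the central 50% of all detected genes. The circles of *ND4L*, *ND4*, *ND5* and *CYTB* lie at -0.81 or below, those of *ND6* and *ND3* above 0, and the crosses of *ND2* and *ND6* lie on the other side of 0 from their circles.

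The other nuclear genes of mitochondrial gene expression did not share 1 direction. Of 14 further genes of replication, repair and nucleoids 7 were lower, with a median of -0.07, and 3 were over 1.5-fold lower. These were *Slc25a4*, the adenine nucleotide carrier of the inner membrane, at 16696 on the control array and 8422 on the *Drp1*LiKO array (-0.99), *Fen1*, the flap endonuclease shared with nuclear replication, at 7072 and 4118 (-0.78), and *Mgme1*, a mitochondrial exonuclease, at 135 and 79.4 (-0.77). *Mpv17*, an inner membrane protein whose loss depletes mitochondrial DNA in liver, was the highest of this list, at 2235 and 2902 (0.38). *Fen1* is also a gene of dividing cells, and the 8 mitotic genes above had a median ratio of -2.04, whose part in the *Fen1* value was not tested.

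Of 12 genes of mitochondrial nucleotide supply, 5 were lower, with a median of 0.03. *Slc25a36*, a pyrimidine nucleotide carrier, was the lowest at 135 on the control array and 81.5 on the *Drp1*LiKO array (-0.73), although its 3 probes ranged up to 0.44. *Sucla2*, a subunit of succinyl-CoA ligase, was the highest by the brightest probe at 0.16, with its other probe at 0.61. Of 7 genes of transcription elongation and termination, 1 was lower, *Mrpl12* (-0.10), a ribosomal protein that also binds the polymerase. *Mterf1a*, a termination factor, was at 236 and 356 at its brightest probe (0.59, 1.51-fold higher). The other *Mterf1a* probe had a ratio of 0.21, and the near-identical copy *Mterf1b* may share these probes. None of 24 genes of mitochondrial RNA processing and stability passed 1.5-fold. They ran from -0.41 for *Nsun4*, an RNA methyltransferase, to 0.45 for *Trmt10c*, a subunit of mitochondrial RNase P, with a median of -0.02. The 7 proteases listed beside *Lonp1* ran from -0.20 for *Htra2*, of the intermembrane space, to 0.21 for *Lonp2*, the Lon protease of peroxisomes, and none passed 1.5-fold.

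Among 13 detected nuclear regulators of mitochondrial biogenesis, a list to which *Nrf1* would belong, the coactivator *Ppargc1a* stood apart. Its signal was 133 on the control array and 431 on the *Drp1*LiKO array, a log2 ratio of 1.69 or 3.23-fold higher and a Z score of 2.61, and its other probe had a ratio of 1.80. Its ratio was 1.16 to 1.75 over 8 alternatives, and its Z score was 2 or more in 10 of 12, falling to 1.38 in the normalized table and to 1.84 without a floor under dim signals. Its relative *Ppargc1b* was at 120 and 188 (0.64), and 7 of the 13 were lower, down to -0.42 for *Nfe2l2*, the antioxidant response factor. The other *Nfe2l2* probe was at 0.28. *Ppargc1a* is known to act through *Nrf1* and to raise *Tfam*. Here *Ppargc1a* was higher, *Nrf1* ranged from -0.05 to 0.39 between its probes and *Tfam* was lower at both of its probes. *Esrrg* and *Perm1* were not above background on either array.

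**Figure D4:**
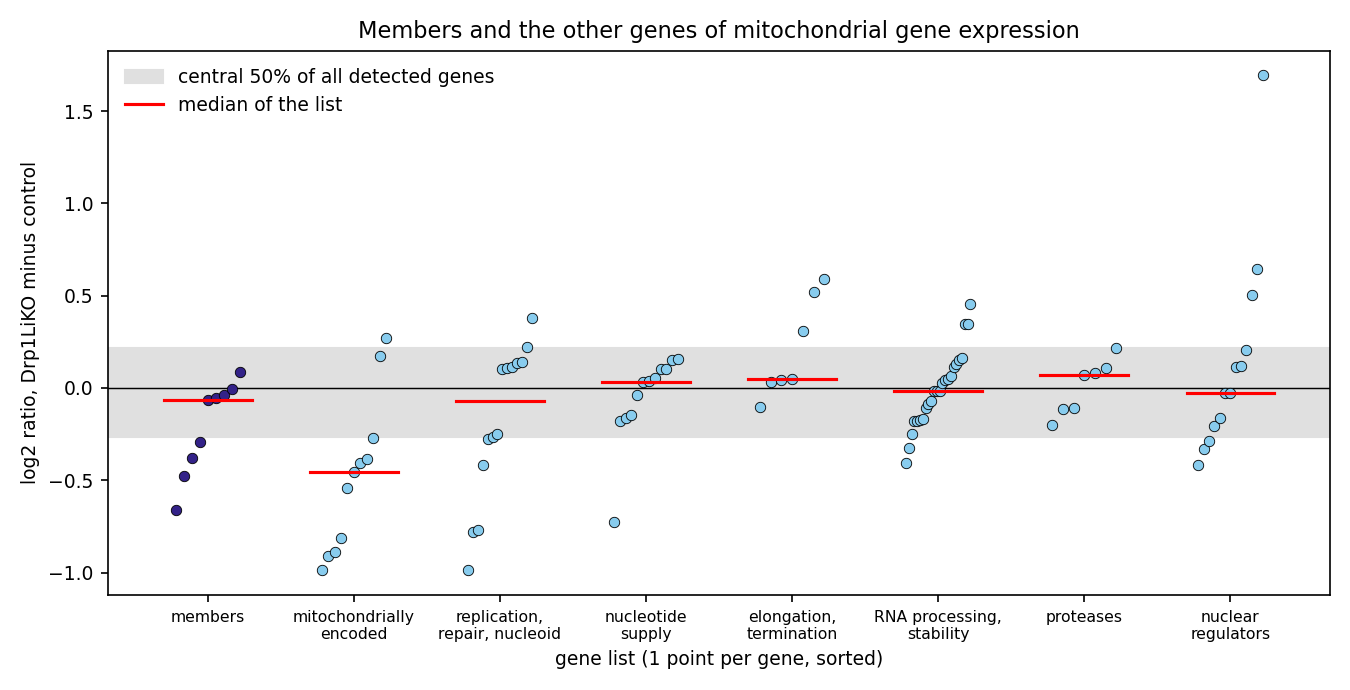
Log2 ratio of each gene's brightest probe, *Drp1*LiKO minus control, for the 9 members and for 7 other lists of mitochondrial gene expression, with the median of each list as a red line and the central 50% of all detected genes as a grey band. The median is -0.46 for the mitochondrially encoded transcripts and lies between -0.07 and 0.07 for the members and the other lists, and the highest point is *Ppargc1a* at 1.69.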

How the data were processed

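RNA of control and *Drp1*LiKO hepatocytes was read in 1 color on 60-mer Agilent mouse arrays. The authors deposited the Feature Extraction output of each array, with the intensity of each spot (version 9.5.1.1 in the submitters' processing notes), and a table of normalized intensities whose method was not given in the sources used here. Control spots and spots marked as outliers were dropped from the processed signals, the log2 values of a probe's spots were averaged, and arrays were aligned at their 75th percentile. Probes above background on at least 1 array were kept, and dimmer signals were raised to the lowest signal above background. Members and gene lists were chosen with earlier results of these data known. All members, the highest and lowest gene of each list and those past 1.5-fold or a Z score of 2 were named. Coordinates of probes are in mm9, and exons and UTRs were not assigned. The alternatives were quantile normalization, scaling to 7 spike-in probes, normexp with an offset of 50, the normalized table, the median of a gene's probes, outlier spots kept, no floor, the 50th percentile, other filters and other Z scores. The steps were tested on simulated data. Calculations used limma 3.58.1 under R 4.3.3, and numpy 2.4.6, matplotlib 3.10.9 and pandas 2.3.3 under Python 3.11.15.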

Additional observations from a re-analysis of the deposited data

How the results depend on the processing

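No member reached a Z score of 2 under any alternative tried. The members' median ratio ranged from -0.13 to -0.02. Ratios were recomputed under 8 alternatives. *Tfam*, *Tfb1m*, *Tfb2m*, *Polrmt* and *Polg* kept their direction in 8 of 8, *Ssbp1* in 7, *Lonp1* and *Nrf1* in 6 and *Polg2* in 4. Leaving out the floor changed no member ratio. Keeping outlier spots hardly moved the member ratios, with *Tfam* at -0.380167 against -0.380134. These counts therefore include alternatives that could not, or could hardly, change a direction. With normexp background correction *Tfb2m* was at -0.58, and 0 members were over 1.5-fold. *Tfam*, *Tfb1m*, *Tfb2m* and *Polrmt*, 4 genes picked out after their values were seen, lay below every other member in each of the 8. This holds by the brightest probe or the median of probes, but only alternatives that can change the order of the members put it to a check. The median of the mitochondrially encoded transcripts stayed between -0.46 and -0.39. These 2 summaries were recomputed under alternatives chosen after seeing the data. Without a filter on dim probes the median of all genes moved to -0.47 and that of the members stayed at -0.07. No paired analysis was possible because each genotype has 1 array, and leaving out an array would leave no comparison.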
